A study of Mus musculus with 4 samples.

Results

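RNA recovered from mouse islets by immunoprecipitation of IMP2 was compared with total RNA of control islets, gene by gene. In RNA immunoprecipitation (RIP) an antibody pulls down a protein and the RNA that comes with it is sequenced. The comparison used every gene with a mean of at least 1 CPM over these 2 libraries, where CPM scales the counts of each library to the same total. This kept 15968 of 43629 genes, and the genes nearest to the limit stood at 1.001 CPM just inside and 0.998 CPM just outside.

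All 4 libraries of the series came from C57BL/6 mice, with islets, the small endocrine organs inside the pancreas, as the labelled tissue, and each group had 1 library. The control library carries the genotype control. The RIP library was made from wild-type islets with an antibody to IMP2, and the library titled IgG, also of wild-type genotype, stands for the control antibody. The remaining library has the genotype Rip2;IMP2 and is called an islet-specific knockout of IMP2 in the series title. Rip2 is a common name of an insulin promoter, whose activity lies in beta cells, so that other cells of such an islet would keep the gene. Age and number of animals are not given in the sources used here. With 1 library per group no difference has a replicate check, so no p-value is given, and every interval compares 2 libraries and covers counting error only.

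IMP2 is the protein of Igf2bp2, and Igf2bp1 and Igf2bp3 encode its 2 relatives. These proteins bind mRNA mainly in the cytoplasm, often in the 3′ UTR, and are known to affect its stability, location and translation. Beta cells, the main cells of an islet, make insulin and hold very large amounts of insulin mRNA.

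Control islets had 26350813 gene counts, the labelled knockout 24275628, the RIP 6025594 and IgG 13195732. For every 100 gene counts, reads outside any annotated exon numbered 33.0 in control islets, 35.4 in knockout-labelled islets, 93.3 after RIP and 61.2 with IgG. Ins1 and Ins2 together took 29.9% of gene counts in control islets, 32.1% in knockout-labelled islets, 22.5% after RIP and 0.0931% with IgG. By this measure the RIP resembled the islet libraries, and IgG, whose labelled tissue is also islet, lacked the defining islet transcripts. Markers of brown and white fat cells summed to 499 CPM in control islets, 344 in knockout-labelled islets, 6665 after RIP and 99568 with IgG. Fat cell RNA therefore moves with the antibody libraries, and its values are given beside each result it touches.

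Over all genes measured, 2686 (16.8%) were called higher in the RIP than they were in control RNA and 3888 (24.3%) lower, so that 41.2% were called in one direction or the other. A call means a ratio of scaled levels of at least 2-fold with a 95% interval that excludes 1. The median log2 ratio was -0.12, and it moved by -0.28 when library totals replaced the TMM scaling, a trimmed mean of gene ratios. Every ratio and median is to be read against that background.

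Small structured RNAs were among the classes most over-recovered in the RIP. They include snoRNAs, which guide the modification and processing of ribosomal RNA in the nucleolus, snRNAs, which form the spliceosome, and scaRNAs, which guide the modification of snRNAs. Since many of their genes passed the expression limit only through the RIP, the whole class is described by its summed level over all annotated genes, measured or not. snoRNA genes summed to 69.2 CPM in control islets, 259 after RIP and 13.2 with IgG, a scaled ratio of RIP over control of 4.54 (95% interval 4.24 to 4.86). snRNA genes summed to 16.5 CPM in control islets, 99.7 after RIP and 6.82 with IgG, a ratio of 7.35 (6.49 to 8.34). For both classes the IgG library lay below control islets as well as below the RIP.

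The transcripts of 2 snoRNA genes with high counts in the RIP are shown because they had the highest RIP counts of the class. Rnu3a encodes U3 snoRNA, needed for the first cuts of the ribosomal RNA precursor, and lies on chr10:40258467-40258680, plus strand. Snord17 lies on chr2:144265979-144266216, minus strand, in an intron of Snx5. Capitals mark the letters TGATGA and CTGA, the C and D box consensus of this snoRNA class, searched on the transcript strand only. The sequences are from GENCODE M21 transcripts, build GRCm38.
Rnu3a: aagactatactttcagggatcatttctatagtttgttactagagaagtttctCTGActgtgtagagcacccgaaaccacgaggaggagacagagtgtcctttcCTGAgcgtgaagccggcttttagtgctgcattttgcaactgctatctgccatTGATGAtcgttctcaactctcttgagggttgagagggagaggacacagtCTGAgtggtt
Snord17: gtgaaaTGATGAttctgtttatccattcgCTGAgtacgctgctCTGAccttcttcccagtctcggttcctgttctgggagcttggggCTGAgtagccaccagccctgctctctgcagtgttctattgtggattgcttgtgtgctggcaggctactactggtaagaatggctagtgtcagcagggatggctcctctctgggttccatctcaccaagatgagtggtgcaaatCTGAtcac
TGATGA occurs in 383 of 1484 annotated snoRNA genes (25.8%), CTGA in 1180 (79.5%) and both in 370 (24.9%), so the letters alone are common in the class.

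Rnu3a had 15 counts in control islets, 7 in knockout-labelled islets, 252 after RIP and 0 with IgG, a ratio of RIP over control of 89.2 (53.0 to 162). Snord17 had 5, 12, 136 and 35 counts in the same order, a ratio of 144 (60.4 to 452). Its host Snx5, which encodes a sorting nexin of endosomes, went the other way, from 147 CPM in control islets to 54.8 CPM in the RIP (ratio 0.452). The snoRNA and the exons around it were thus recovered in opposite directions. Of 40 snoRNA genes measured, 30 had under 1 CPM in control islets and had to differ, which covers most of the 34 called higher, and 5 were lower. Those lower were Snora41, Snora43, Snord14a, Snord104 and the predicted gene Gm26205. Snora43 had 235 counts in control islets, 279 in knockout-labelled islets, 1 after RIP and 63 with IgG, and Snord14a had 86, 11, 0 and 0. The class was therefore not recovered as a whole, and 2 of the 2 snoRNA genes above 5 CPM in control islets were lower in the RIP.

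Of 19 snRNA genes measured, 17 had under 1 CPM in control islets and entered only through the RIP, so that all 19 were called higher says nothing beyond the summed level. Gm26497, annotated as an snRNA gene inside Piezo1, had 1 count in control islets, 0 in knockout-labelled islets, 50 after RIP and 0 with IgG, while Piezo1 stood at a ratio of 1.05. It shares a run of 20 bases with 395 of 1382 other snRNA genes (28.6%), so reads may be placed at it that arose from a copy. Gm26008 had 32 counts in the RIP and 0 in the other libraries, at least 56.6-fold higher than a control library holding 3 counts. Rnu12, the U12 snRNA of the minor spliceosome, had 3, 12, 19 and 0 counts, a ratio of 33.6 (9.90 to 177).

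The 4 scaRNA genes measured included 2 with good counts in control islets. Scarna2 had 71 counts in control islets, 84 in knockout-labelled islets, 86 after RIP and 11 with IgG, a ratio of 6.43 (4.64 to 8.93). Gm22009 had 102, 156, 89 and 2 counts, a ratio of 4.63 (3.45 to 6.22), while its host Kpna4, an importin, stood at 0.790. Both were well counted in the islet libraries and low in IgG. The 2 abundant RNAs made by RNA polymerase III behaved differently. Rn7sk, which holds the elongation factor P-TEFb inactive, had 2254 counts in control islets, 2614 in knockout-labelled islets, 338 after RIP and 740 with IgG, a ratio of 0.796 (0.708 to 0.893). Rpph1, the RNA of ribonuclease P, had 880, 1060, 256 and 862 counts, a ratio of 1.54 (1.34 to 1.78). Neither reached 2-fold.

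Genes that overlap ribosomal RNA sequence made up most of the gain in noncoding reads. Gm42418, a lincRNA gene annotated on chr17:39846958-39848788 over ribosomal RNA sequence, rose from 15326 CPM in control islets to 175599 CPM in the RIP, a ratio of 13.9, and took 17.6% of all gene counts there against 3.57% in IgG. n-R5-8s1, a gene of one of the small ribosomal RNAs, had 410 counts in control islets, 500 in knockout-labelled islets, 1414 after RIP and 481 with IgG, a ratio of 18.3 (16.4 to 20.5). Of 12 rRNA genes measured, all higher, 10 had under 1 CPM in control islets and entered only through the RIP. Without n-R5-8s1 the rRNA class summed to 4.97 CPM in control islets, 67.4 after RIP and 9.78 with IgG, a ratio of 16.5. These genes share sequence with many copies, and how the reads were divided between copies was not tested.

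Most reads of the miRNA class lay in 5 genes, Gm23935, Mir6236, Gm24187, Gm24270 and Mir6240. Of these, Gm23935, Mir6236 and Mir6240 share no run of 20 bases with Gm42418, Gm26917 or n-R5-8s1. They were not compared with the whole ribosomal RNA precursor. This check therefore cannot tell whether they overlap ribosomal RNA sequence, and their reads are not taken as miRNA. The annotated transcripts of 3 genes are shown because they are almost the same in sequence and differed in recovery. In the order below they lie on chr16:11144125-11144181 plus strand, chr9:56223715-56223771 minus strand and chr13:9834469-9834525 minus strand. The capital marks the position at which they differ, position 11 counted from the transcript start, and Gm24187 differs from Gm23935 by G11A over 57 bases.
Gm23935: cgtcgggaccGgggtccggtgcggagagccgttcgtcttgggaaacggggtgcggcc
Gm24270: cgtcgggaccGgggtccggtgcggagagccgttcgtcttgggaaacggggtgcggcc
Gm24187: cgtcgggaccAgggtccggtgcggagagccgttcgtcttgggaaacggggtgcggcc
Gm23935 stood at 1895 CPM in control islets, 2232 in knockout-labelled islets, 10122 after RIP and 3801 with IgG, a ratio of 6.48 (6.41 to 6.56). Gm24187 had 34782 counts in control islets and 6675 after RIP, a ratio of 1.02 (0.992 to 1.05). Gm24270, whose transcript equals that of Gm23935 letter for letter, had 3180 and 904 counts, a ratio of 1.51. Identical transcripts thus gave unlike ratios, and the locus from which such reads came cannot be told apart in these counts.

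Without these 5 genes, those with most RIP counts, miRNA genes summed to 49.3 CPM in control islets, 134 after RIP and 95.8 with IgG, a ratio of 3.31 (3.03 to 3.61). The counts are of reads over the annotated hairpin gene and not of the mature miRNA. The mature forms of 4 of these genes are shown because the genes had 0 counts in control islets and between 15 and 46 in the RIP. They are taken from RefSeq (GRCm38.p6), which matched 10 of the 25 miRNA genes measured, and capitals mark the seed, the bases that pair first with a target.
mmu-miR-218-5p: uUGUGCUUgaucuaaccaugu
mmu-miR-21c: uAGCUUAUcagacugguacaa
mmu-miR-3073a-5p: gUGGUCACaguuggcgccagcc
mmu-miR-32-5p: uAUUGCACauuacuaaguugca
No seed was shared between them. Mir218-1 and Mir21c had 46 counts each in the RIP and 0 in IgG, at least 81.4-fold higher than 3 counts in control islets. Mir218-1 lies in an intron of Slit2, an axon guidance ligand, which itself stood at 5.65 CPM in control islets and 26.6 after RIP. Mir3073a lies in Aspg, an asparaginase gene, which rose from 0.152 to 29.4 CPM but held 389 CPM in IgG. Mir32, with 15 counts, lies in Tmem245, which stood at a ratio of 0.658. The opposite also occurred, since Mir3074-1, in an intron of Fancc, had 56 counts in control islets, 85 in knockout-labelled islets and 0 in the RIP and in IgG.

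Across gene types, protein-coding genes gave 95.01% of gene counts in control islets, 77.8% after RIP and 91.7% with IgG. Most of the difference lay in lincRNA genes, at 2.06%, 18.4% and 3.92%. Without Gm42418 and its neighbour Gm26917, lincRNA genes summed to 4393 CPM in control islets and 5023 after RIP, a ratio of 1.39 (1.37 to 1.41). The lincRNA total was therefore carried by these 2 genes. Among genes other than protein-coding, 885 of 2045 were called higher (43.3%) and 587 lower (28.7%), against 1801 of 13923 coding genes higher (12.9%) and 3301 lower (23.7%). Any call was made for 72% of the first kind and 36.6% of the second, and calls over both control islets and IgG for 35.8% and 7.86%. Many of the higher calls came from genes that entered only through the RIP. Where control islets held at least 5 CPM, 90 of 739 genes other than protein-coding were higher (12.2%) and 265 lower (35.9%), against 6.40% and 22.4% of coding genes. There 11 of 70 lincRNA genes were higher and 18 lower, and 9 of 58 antisense genes were higher and 15 lower. Of 14 TEC genes, transcribed regions awaiting experimental check, 6 were higher and 3 lower, and of 363 processed pseudogenes 34 and 131, against 6.75% higher and 23.2% lower over all 12392 genes above that level, where 3.12% were over both control islets and IgG.

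**Figure D1:**
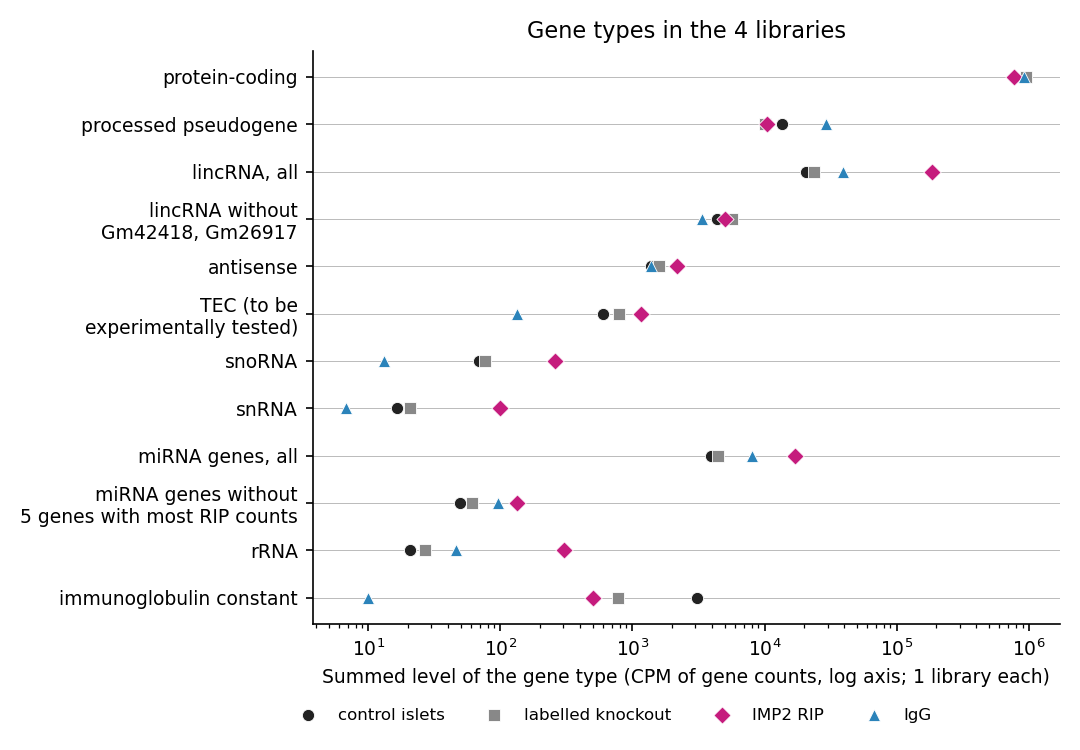
Summed CPM of gene types in 12 rows, 2 of them without genes named there or the 5 with most RIP counts, in the 4 libraries (points, 1 library per group, log axis). snoRNA, snRNA and rRNA points lie farther right in the RIP than in any other library, while constant immunoglobulin genes lie farthest right in control islets.

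Long noncoding RNAs that stay in the nucleus or host small RNAs were kept as 1 list. It had 16 measured members, 5 called higher (31.25%) and 1 lower (6.25%), beside 16.8% and 24.3% over all genes. Its median log2 ratio was 0.39. Malat1, a very abundant nuclear RNA, stood at 471 CPM in control islets, 672 in knockout-labelled islets, 810 after RIP and 950 with IgG, so that IgG exceeded the RIP. Meg3, an imprinted RNA, had a ratio of 1.12, and Xist, which coats the inactive X chromosome, 1.28. Xist stood at 600 CPM in control islets, 748 in knockout-labelled islets, 631 after RIP and 2.05 with IgG. Kcnq1ot1, an imprinted antisense RNA, was 2.30-fold higher, a call lost over the labelled knockout and with library totals. Dleu2, a host of small RNAs, was 5.23-fold higher. Processed pseudogenes as a type summed to 13569 CPM in control islets, 10464 after RIP and 29267 with IgG, a ratio of 0.936. Gapdh-ps14 rose from 45 to 2786 counts (4152 in IgG) while Gapdh fell from 316 to 1. Reads may be shared within such a pair, which was not tested, so neither value is taken to stand for its gene.

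Several types of genes annotated inside introns, on the strand of the host gene, had a higher summed ratio than their hosts. The type TEC had 470 members inside an intron. Most that passed the expression limit did so through the RIP, and of the 9 at 5 CPM or more in control islets 5 were higher and 1 lower. Their summed level was 459 CPM in control islets, 618 in knockout-labelled islets, 984 after RIP and 71.1 with IgG, a ratio of 2.60 (2.52 to 2.69). Their 269 host genes, counted over exons, had a summed ratio of 0.956. Genes of the type sense intronic gave 2.49 (2.29 to 2.70) with hosts at 1.22, and intronic snoRNA genes 4.84 (4.35 to 5.38) with hosts at 0.881. Processed pseudogenes in introns gave 0.917. The same types outside introns gave 1.62 for TEC, 4.34 for snoRNA and 0.938 for processed pseudogenes. snRNA genes gave 6.75 inside introns and 7.83 outside, and miRNA genes 1.63 and 5.44. The intervals inside and outside introns overlapped for snoRNA and snRNA genes and did not for TEC and miRNA genes.

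The 24 TEC and sense intronic genes with most counts in control islets, between 2.13 and 289 CPM there, were not chosen by the RIP. Of these, 12 were called higher and 7 lower, and 5 had no RIP count. In 12 the interval lay above the ratio of the host and in 6 below it. Gm37033, in an intron of Itpkb, a kinase of inositol trisphosphate, had 414 counts in control islets, 1051 after RIP and 10 with IgG, a ratio of 13.5 (12.02 to 15.1) against 1.10 (1.04 to 1.17) for Itpkb. Gm37529, in Rabgap1l, had 77, 378 and 0 counts, a ratio of 26.1 (20.3 to 33.7) against 0.629. A130071D04Rik, in the leukocyte gene Ptprc, had 165, 208 and 16 counts, a ratio of 6.69 (5.43 to 8.26) while Ptprc itself was 8.61-fold lower. The most abundant, Gm38070 in the interleukin receptor gene Il1r1, held 289 CPM in control islets and 274 after RIP, a ratio of 1.15 (1.09 to 1.22). Gm38157, in the cytolinker gene Dst, went the other way at 0.188 (0.0893 to 0.351) against 2.09 for Dst. Reads outside annotated exons were also more frequent in the RIP, at 93.3 per 100 gene counts against 33.0 in control islets. Their part in these ratios was not tested.

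**Figure D2:**
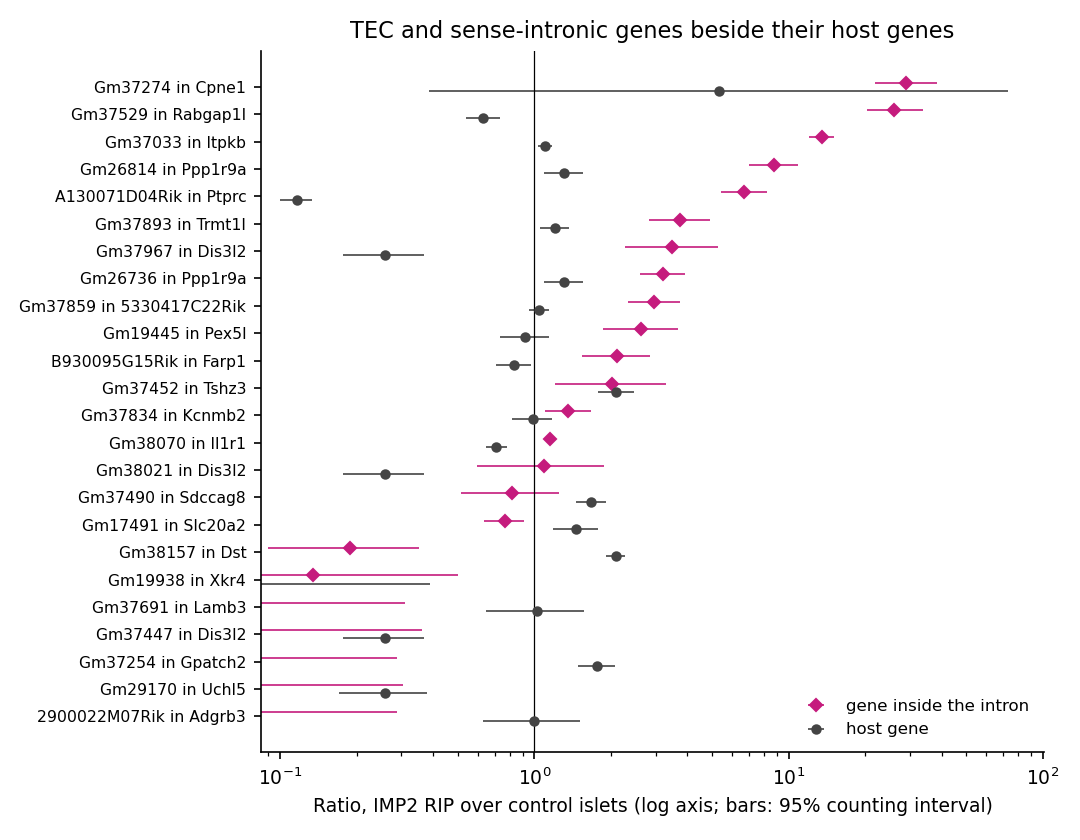
Ratio of RIP over control (log axis) for 24 intron genes most abundant in control islets, with the ratio of the exons of each host gene beside it and 95% counting intervals as bars. Genes with 0 RIP counts show only a bar that reaches the left edge. In 12 of the 24 the intron gene lies above its host beyond the interval, and in 6 below.

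How far a gene could differ depended on its level in control islets. Of 1290 genes at or above 100 CPM there, 86.2% lay within 2-fold, 2.95% were called higher and 10.9% lower. Between 1 and 5 CPM, 32.6% of 2537 genes were higher and 40.1% lower. Of the 1039 genes under 1 CPM in control islets, 1024 were higher, which the expression limit forces, since such a gene entered only through the RIP. Genes called lower with no count at all in the RIP numbered 1350. In the RIP, genes absent from both islet libraries and above 5 counts had a median of 18 counts over 230 genes. Reads per original molecule were not measured. With this median assumed in their place and divided out of the RIP counts only, 1373 genes were higher and 1004 lower.

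**Figure D3:**
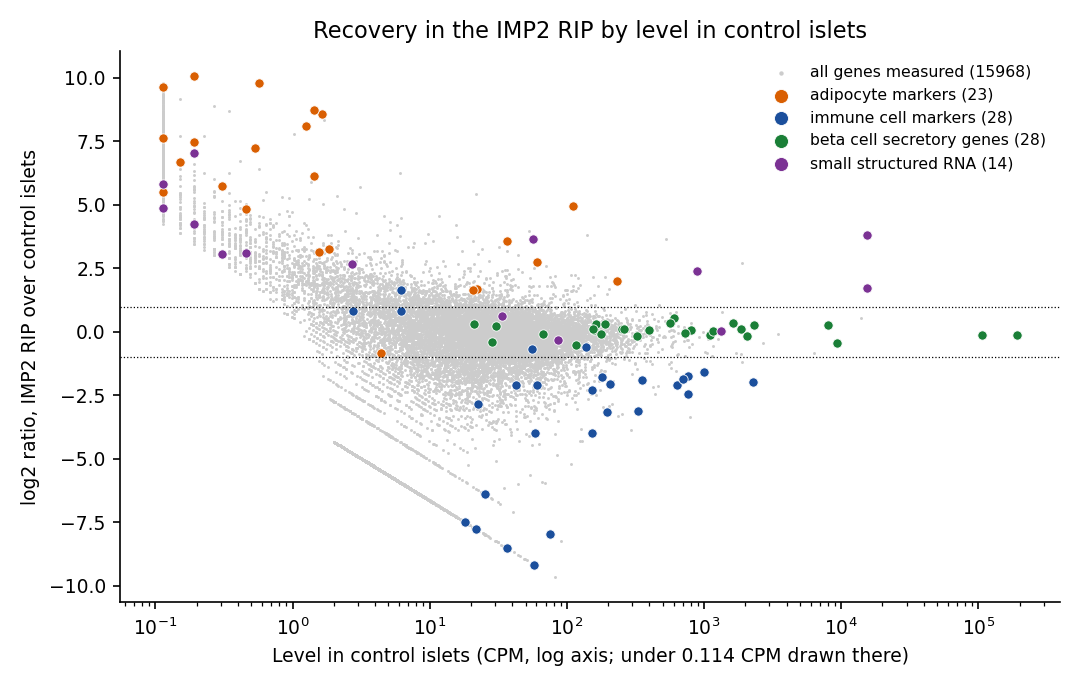
Log2 ratio of RIP over control (vertical) against control CPM (horizontal, log axis), 1 point per gene measured, with 4 gene lists in colour. Points narrow toward 0 as the control level rises, 22 of 23 fat cell markers lie above 1, 23 of 28 immune markers are called lower, and none of the 28 beta cell secretory genes is called.

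All 3 members of the Igf2bp family were called higher in the RIP, but only Igf2bp2 stood at 5 CPM or more in control islets. Igf2bp1 was under 1 CPM there and entered only through the RIP, so it had to differ. Igf2bp2 had 255 counts in control islets, 222 in knockout-labelled islets, 186 after RIP and 458 with IgG, a ratio of RIP over control of 3.87 (3.19 to 4.70) but of 0.552 over IgG. The level in the labelled knockout, 9.15 CPM against 9.68 CPM in control islets, differed little, so this count does not check the label. Igf2bp1 (chr11:95957163-96005940, minus strand) had 9, 32, 736 and 523 counts, a ratio of 434 (227 to 953) over control and 1.91 over IgG. Igf2bp3 had 32, 10, 26 and 69 counts, a ratio of 4.31 (2.47 to 7.47) over control and 0.512 over IgG. No member of the family reached 2-fold over IgG.

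Of the 2686 genes called higher, 1826 were also called at least 2-fold above IgG, which is 11.4% of all genes measured, and 511 had IgG at least 2-fold above the RIP. The second group holds the fat cell genes. Ucp1, which lets brown fat make heat, was measured at 0.190 CPM in control islets, 0.577 in knockout-labelled islets, 186 after RIP and 4121 with IgG, a ratio of 1192 (509 to 3679) over control. Cidea, a lipid droplet protein, rose 431-fold and Cox8b, a respiratory chain subunit of muscle and brown fat, 921-fold. Of 23 adipocyte markers measured, 22 were called higher (95.7%, beside 16.8% over all genes), and 0 of them stood above IgG. Over 16 of these markers that are nearly absent from control islets, the RIP level was a median of 6.68% of the IgG level, between 4.17% and 84.1%. The nuclear-encoded subunits of oxidative phosphorylation moved with them: 39 of 75 were higher (52%) and 3 lower (4%), beside 16.8% and 24.3% over all genes. Their median log2 ratio was 1.10, and in IgG over control the median was 4.70. Uqcr10, a complex III subunit, stood at 70.0 CPM in control islets, 345 after RIP and 5062 with IgG. With 6.68% of the IgG level taken off the RIP, the median of the list was -0.49 and 5 of 75 remained at 2-fold or more. The same subtraction put the median of all genes at -0.26. Whether fat cell RNA made up the gain of this list was not tested.

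Beta cell genes were recovered close to the level of islet RNA. None of 28 genes of insulin secretion and granules was called, with a median log2 ratio of 0.08 over control, -0.22 over the labelled knockout and -7.06 for IgG over control. Ins1 had a ratio of 0.923 (0.921 to 0.926) and Ins2 0.912 (0.910 to 0.914). Chga, a granule protein, had 0.743, G6pc2, a beta cell glucose phosphatase, 1.27, and Pcsk1n, an inhibitor of prohormone convertase, 1.47. These genes thus stood within 2-fold of islet RNA and far above IgG. Of 15 beta cell transcription factors, 1 was called: Glis3, at 25.9 CPM in control islets, 33.1 in knockout-labelled islets, 51.9 after RIP and 1.59 with IgG, a ratio of 2.43 (2.12 to 2.78). Neurod1 had a ratio of 1.98 (1.81 to 2.16) and Pdx1 0.757 (0.676 to 0.846). With library totals as the scaling, both list medians lay below 0, at -0.16 for the transcription factors and -0.20 for the secretory genes.

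Genes of the other islet hormones differed between members. Gcg, glucagon, stood at a ratio of 1.47 (1.46 to 1.49), but the labelled knockout also held more of it than control islets, and the ratio over that library was 0.809. Hhex, a factor of delta cells, was 2.73-fold lower, and Ghrl, ghrelin, stood at 0.481. The list had 1 member higher, 2 lower and 7 not called.

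Medians of the translation and secretion machinery differed by part. In no part was the share called above that over all genes measured, 16.8% higher and 24.3% lower. At 5 CPM or more in control islets, the shares over all genes were 6.75% and 23.2%. There 3 of 29 genes of signal recognition and entry were higher and 1 lower, and 8 of 72 mitochondrial ribosomal protein genes higher and 13 lower. Of 72 cytosolic ribosomal protein genes at that level 0 were higher and 15 lower, and of 46 translation factors 0 and 4. Genes of signal recognition and entry into the endoplasmic reticulum had a median log2 ratio of 0.33, with 3 of 29 higher and 1 lower. Over the labelled knockout their median was -0.06. Sec62, a partner of the translocation channel, had 3278 counts in control islets, 4551 in knockout-labelled islets, 2232 after RIP and 459 with IgG, a ratio of 3.61 (3.42 to 3.82). Sec61g was 3.79-fold higher and Sec61a1 stood at 1.75. Srp19, of the signal recognition particle, was lower at 0.428. Cytosolic ribosomal protein genes had 0 of 77 higher, 17 lower (22.1%) and a median of -0.34. Translation factors had 0 of 46 higher, 4 lower (8.70%) and a median of -0.32. Eef1a1, the elongation factor, fell from 1892 CPM to 691, a ratio of 0.443, but stood at 0.715 over the labelled knockout. Both medians lay near 0 over that library, at -0.04 and -0.03. Mitochondrial ribosomal protein genes had 9 of 74 higher, 14 lower and a median of 0.20, which became -0.46 with the IgG share taken off.

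Lists for chromatin and cytoskeleton had medians below that of all genes against control islets, but smaller shares called lower than the 24.3% over all genes. Chromatin regulators with long coding sequences had a median of -0.46, with 3 of 32 higher and 5 lower. All 3 higher stood at 5 CPM or more in control islets. Of these, Bptf, a remodelling factor subunit, went from 121 to 439 CPM, a ratio of 4.42 (4.19 to 4.65). Chd7, a remodelling helicase, went from 75.4 to 281 CPM, a ratio of 4.52 (4.23 to 4.83). Med12, of the Mediator complex, was 3.18-fold lower and Chd3 2.15-fold lower. The core of cytoskeleton and motors had a median of -0.44, with 0 of 21 higher and 3 lower. Over the labelled knockout the 2 medians were -0.16 and -0.09, beside -0.10 over all genes. Actg1, a cytoplasmic actin, was 4.15-fold lower and Kif5b, a kinesin, went from 95.3 to 28.1 CPM. Myh9, a nonmuscle myosin, fell from 556 to 192 CPM against control islets but stood at 0.937 over the labelled knockout.

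Relative to islet RNA, transcripts named in earlier work as IMP2 targets were called no more often than all genes. Of 23 measured, 2 were called higher and 5 lower (8.70% and 21.7%), with a median log2 ratio of -0.30. Over IgG, which lacked the defining islet transcripts, their median was 1.07, beside 0.63 over all genes. Whether IMP2 binds them was not tested by these ratios. The 2 higher members, Ucp1 and Mrpl30, a mitochondrial ribosomal protein, had more in IgG than in the RIP. The 5 lower ones were Myc, Imp3, Lims2, Ptgs2 and Igf1r. Myc, a growth factor regulated transcription factor, had 1020 counts in control islets, 500 in knockout-labelled islets, 13 after RIP and 2 with IgG, 14.8-fold lower. Ccnd2, a cyclin of beta cell division, stood at 1.33 (1.26 to 1.40) and Actb at 0.557. Imp3, a nucleolar protein whose symbol resembles the family name but which is no member of it, was 3.09-fold lower. Immediate early genes, which rise within minutes of a stimulus, had 0 of 20 higher, 8 lower and a median of -0.53. The share lower was 40%, beside 24.3% over all genes. Klf4 was 5.09-fold and Ier3 5.75-fold lower. Among other RNA-binding proteins 1 of 40 was higher and 12 lower, or 30%, near the 24.3% over all genes, and the median of -0.05 lay above that of all genes. Lower members included Dhx9, an RNA helicase, 6.84-fold lower and Mettl3, which writes the methyl mark of adenosine, 5.84-fold lower.

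**Figure D4:**
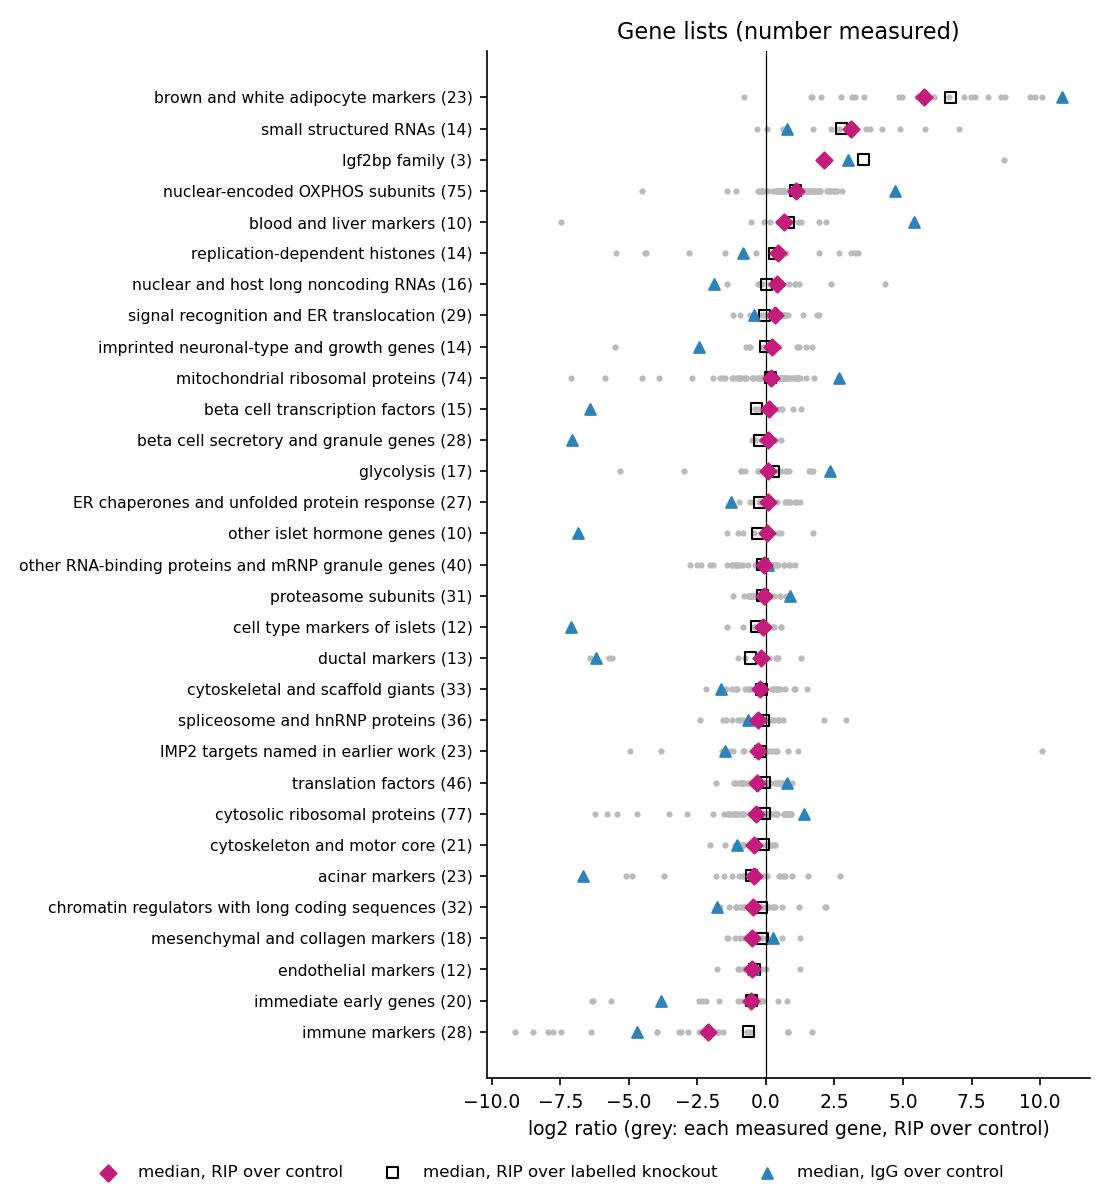
Log2 ratios for 31 gene lists (rows): members of RIP over control as grey points, with the median of RIP over control (diamond), of RIP over the labelled knockout (square) and of IgG over control (triangle). Beta cell lists keep diamonds near 0 and triangles far to the left, fat cell and oxidative phosphorylation lists have both to the right, and the immune list has the lowest diamond.

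Coding genes well measured in control islets and higher in the RIP than in both control islets and IgG were few. At or above 20 CPM in control islets, 94 of 7471 coding genes (1.26%) met this, beside 284 called higher (3.8%) and 1278 lower (17.1%). This level was added after the values had been seen. IgG lacked the defining islet transcripts, so for islet genes the limit over IgG adds little. All 94 also had a ratio above 1 over the labelled knockout, and 44 of them reached 2-fold. No interval was required there, and values as near to 1 as 1.04 occurred. Pabpc4 (chr4:123262351-123298925, plus strand), which encodes a poly(A)-binding protein of the cytoplasm, had 1385 counts in control islets, 1666 in knockout-labelled islets, 4134 after RIP and 1716 with IgG. Its ratio was 15.8 (14.9 to 16.9) over control, 11.7 over the labelled knockout and 3.27 over IgG. Gm22154, an snoRNA gene in an intron of Pabpc4, went from 1 count in control islets to 16 in the RIP. Pabpc4 stood apart from the next gene, Auts2, a regulator of neuronal development, with 596, 909, 943 and 48 counts and a ratio of 8.40 (7.57 to 9.32). Larp4b, which encodes a protein that contacts poly(A)-binding protein, had 4092, 4077, 3412 and 763 counts, a ratio of 4.43 (4.23 to 4.63).

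Other members, with what each is known for, were as follows, and no theme was tested among them. Cadm1, a cell adhesion molecule of islet cells, had a ratio of 5.30 (4.83 to 5.82), Cdh2, N-cadherin, 4.56 (4.14 to 5.01), and Ncam1 3.16 (2.97 to 3.35). Phactr1, which binds actin and protein phosphatase 1, had 5040 counts in control islets, 5654 in knockout-labelled islets, 4264 after RIP and 2 with IgG, a ratio of 4.49 (4.31 to 4.68). Rapgef4, the cAMP sensor Epac2 of beta cells, had 3.48 (3.22 to 3.76), and Synpr, a synaptic vesicle protein, 3.76 (3.33 to 4.24). Trim2 and Fbxw7, parts of ubiquitin ligases, had 4.40 and 3.57. Lias, which makes lipoic acid in mitochondria, had 4.86 (4.44 to 5.32) and Zbtb20, a repressor of transcription, 4.604 (4.33 to 4.90). IgG held under 1 CPM of Phactr1, Rapgef4, Synpr and Ncam1, but 27.96 CPM of Lias and 76.3 CPM of Zbtb20.

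The 94 genes were chosen in part for low IgG, and IgG over control itself fell with genomic span, from a median of 0.13 in the shortest of 5 groups to -1.32 in the longest, so their size is in part set by that choice. Their median genomic span was 59.6 kb (upper quartile 177), against 25.9 kb for 5909 genes not called, 27.9 kb for those lower and 14.1 kb for the 190 higher genes without 2-fold over IgG. Their median coding length was 1992 bases against 1467 for genes not called, and the GC content of the 3′ UTR 41.6% against 45.9%. TGGAC, the core letters of a motif reported for this protein family, was missing from the 3′ UTR of 41.1% of them and of 37.8% of those not called.

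Genes over both control islets and IgG but nearly absent from control islets numbered more: 1439 of the 1826 had under 5 CPM there. Tfap2b, a developmental transcription factor, had 0 counts in control islets, 1 in knockout-labelled islets, 76 after RIP and 0 with IgG, at least 134-fold higher than 3 counts. Hoxa9 had 3, 1, 127 and 24 counts, and Otx2, a factor of the forebrain, 2, 0, 64 and 0. Ltf, lactoferrin, had 12, 177, 59 and 0 counts, a ratio of 26.1 over control but of 1.57 over the labelled knockout. If each molecule gave 18 reads, which was not measured, 76 counts would stand for few molecules.

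Genes of immune cells were the main under-recovered group. Of 28 markers measured, 23 were called lower (82.1%) and 1 higher (3.57%), beside 24.3% and 16.8% over all genes. The median log2 ratio of these markers was -2.10 against -0.12 over all genes. Their summed level was 8360 CPM in control islets, 2795 in knockout-labelled islets, 1745 after RIP and 380 with IgG. The labelled knockout was thus also low, and over that library the median of the list was -0.63. Ptprc, the common leukocyte antigen, stood at 331 CPM in control islets, 52.4 in knockout-labelled islets, 31.7 after RIP and 0.455 with IgG, 8.61-fold lower than control and at 0.705 over the labelled knockout. In bulk RNA, fewer immune cells and less RNA per immune cell cannot be told apart.

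Many of the named lower genes are known from B cells, a description made after their values had been seen. Ikzf3 (chr11:98464902-98546031, minus strand), a B cell transcription factor, had 2148 counts in control islets, 413 in knockout-labelled islets, 0 after RIP and 1 with IgG, at least 135-fold lower. Cr2, a complement receptor of B cells, had 2388, 240, 1 and 0 counts, and Ighg1, an antibody heavy chain, 1518, 43, 0 and 0. Constant immunoglobulin genes summed to 3083 CPM in control islets, 498 after RIP and 9.93 with IgG, with 9 of 9 lower, and 85 of 100 variable segments were lower. Cd79a, of the B cell receptor, was 15.8-fold lower, Spib 19.9-fold and Laptm5 14.7-fold. Glycam1, made by vessels of lymph nodes, was 38.3-fold lower, with 165 counts in the labelled knockout against 2845 in control islets. Adgre1, a macrophage marker, was the list's 1 higher member, at 6.22 CPM in control islets, 7.33 in knockout-labelled islets, 16.3 after RIP and 0.0758 with IgG. Each gene named here as lower also stood below control islets in the labelled knockout.

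Of the 1278 coding genes lower at 20 CPM or more, immune genes included, 701 were also lower by at least 2-fold than the labelled knockout. At 100 CPM or more these were 26 of 127. The 5 examples that follow are no members of the immune list and were chosen after their values had been seen. Junb, an immediate early factor, stood at 100 CPM in control islets, 101 in knockout-labelled islets, 25.2 after RIP and 4.93 with IgG, a ratio of 0.305 (0.257 to 0.359). Srsf3, a splicing factor, stood at 127, 119, 51.1 and 81.2 CPM, and Kdm1a, a histone demethylase, at 116, 113, 43.6 and 13.0 CPM. Ipo7, an importin, had 1191 counts in control islets, 540 in knockout-labelled islets, 0 after RIP and 165 with IgG, at least 74.8-fold lower. Thbs1, a matrix protein, had 1157, 612, 0 and 2 counts, at least 72.7-fold lower. The RIP lay below both islet libraries for each of these 5 genes, whether those were near each other, as for Junb, or not, as for Ipo7.

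Among transcript features, coding length went with recovery and 3′ UTR length did not. In 7471 coding genes at or above 20 CPM in control islets, the median log2 ratio fell over 5 equal groups of rising coding length from 0.02 to -0.12, -0.20, -0.27 and -0.34. The share called lower rose from 11.6% to 20.5% and that called higher fell from 6.62% to 2.88%. Spearman's rho across these genes was -0.16, where genes of 1 library share its depth and composition. IgG over control fell in the same order, from a median of 0.66 to -1.68. For 3′ UTR length the medians of all 5 groups lay between -0.22 and -0.15, with a rho of 0.00. Exon number gave medians from -0.04 to -0.33. Genomic span gave -0.08 in the shortest group and -0.23 in the longest. The share called higher was 5.42% and 4.75% there, and the share over both control islets and IgG 0.736% and 2.81%, while IgG over control fell from 0.13 to -1.32.

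Short motifs in the 3′ UTR showed no order. Densities per kb were taken on the transcript strand over 7250 genes at or above 20 CPM in control islets with a 3′ UTR. That of CATT had a rho of 0.00 with the log2 ratio, and 88% of these 3′ UTRs held it. The motif CATA had -0.02 and was held by 78.8% of them. The motif CATC had -0.03 and was held by 84.8%. TGGAC had -0.03 at 62.0%, and the density of ACACAC, held by 34.03%, followed the ratio as little. Within short coding sequences the median was 0.03 with a short 3′ UTR and -0.05 with a long one, and within long coding sequences -0.35 and -0.26. The difference therefore followed the coding part in both. Proteins with a hydrophobic start like a signal peptide had a median of -0.19, and those with hydrophobic stretches elsewhere -0.17. Both lay near the -0.18 of all coding genes at this level and the -0.19 of those with neither stretch.

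**Figure D5:**
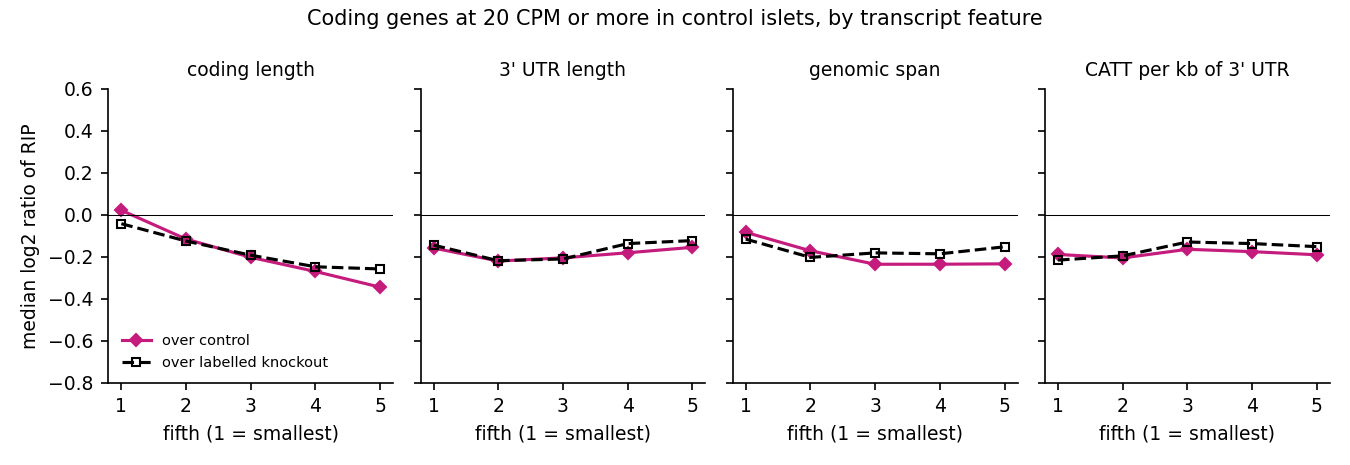
Median log2 ratio over 5 equal groups of coding genes by coding length, 3′ UTR length, genomic span and density of CATT in the 3′ UTR, for RIP over control and RIP over the labelled knockout (7471 genes at or above 20 CPM in control islets). The line for coding length falls from 0.02 to -0.34 over control, and that for 3′ UTR length stays between -0.22 and -0.15.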

How the data were processed

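The tables deposited by the authors hold whole-number read counts for 43629 mouse genes, with 5 entries at the end for reads given to no gene. The submitters' processing notes name STAR, HTSeq and the mm10 build. Versions, the annotation release and strandedness are not given in the sources used here. A gene and its antisense neighbour may share reads. Per the labels' protocols, the islets were frozen in liquid nitrogen before Trizol extraction and Illumina library preparation. Reads given to no gene (50.8% of all reads of control islets, 50.3% with the knockout label, 72.4% after RIP, 70.5% with IgG) were not used in ratios.

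Types, coordinates and transcript features came from GENCODE M21 (GRCm38, the assembly of mm10), which matched 42548 identifiers and left 1081 with no type. Each pair of libraries was scaled by TMM in edgeR 4.0.16 (R 4.3.3). Ratios have exact 95% Clopper-Pearson intervals. For log2 values 0.5 counts were added, and a fold against 0 counts is a bound computed with 3 counts in that library (0.114 CPM for control islets, 0.124 with the knockout label, 0.498 after RIP, 0.227 with IgG). No molecular identifiers mark single molecules, so intervals and floors cover counting error only. The ratios and intervals were tested on simulated data with counting error only, scaled by library totals. That test therefore does not cover repeated reads of 1 molecule or the TMM scaling. Scripts ran in Python 3.11.15 (pandas 2.3.3, SciPy 1.17.1, NumPy 2.4.6) and figures in Matplotlib 3.10.9.

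The comparison, the 31 gene lists and the other choices were made with earlier results of these data known. Named genes are the Igf2bp family, the 15 higher and 15 lower with the interval bound farthest from 1 at a mean of at least 5 CPM, 12 coding genes over both control islets and IgG, 12 abundant ones lower, 5 per gene type by RIP level, and per list the 2 highest, the 2 lowest and the 2 most abundant. The text gives examples of these. The 94 coding genes over both at 20 CPM, the intron genes, the genes lower than both islet libraries, the small RNA genes and the gene families were chosen after values were seen. Some results are not reported here.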

Additional observations from a re-analysis of the deposited data

How the results depend on the processing

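No paired analysis was possible because each group had 1 library, and for the same reason no library could be left out. Of 154 genes, those named in the text and the leading ones of the naming rule, 149 kept their side of the limit under library totals, 152 with the median of ratios, 152 with totals without Gm42418, Ins1 and Ins2, and 151 with scaling on coding genes. Those that lost a call there were Malat1, Dst, Mrpl30, Kcnq1ot1, Srsf3 and Ghrl, while Neurod1 and Actb gained one. Against the labelled knockout 15 lost their call (Myh9, Fcer2a, Eef1a1, Snx5, Ptprc, Cd37, Cd79b, Ghrl, Arhgdib, Kcnq1ot1, Malat1, Dst, Ltf, Glis3 and Synpr), Piezo1 gained one, and Snora41 turned to 0.39 (log2). With a 4-fold limit 29 lost it, and on RIP counts divided by the assumed reads per molecule 19. With the IgG share taken off, Malat1 and Mrpl30 lost it and Uqcr10 turned to -3.03. List medians near 0 changed sign under library totals in 7 of 31 lists.

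The counts were 2686 higher and 3888 lower over all genes, 885 and 587 among genes other than coding, 127 and 136 among list members, and 307 lower in the longest of 5 groups by coding length. With a mean of at least 5 CPM they were 1302 and 2220, and 219 and 153 for genes other than coding. With no expression limit, 1065 genes other than coding were lower. With a 4-fold limit they were 1437 and 2278, 53 and 58 among list members, and 77 in the longest group. With RIP counts divided by the assumed reads per molecule they were 1373 and 1004, 448 and 62 for genes other than coding, and 71 list members lower. Against the labelled knockout 87 list members were lower and 150 in the longest group. With the IgG share taken off the RIP, list members were 64 and 212, and the median of oxidative phosphorylation subunits was -0.49 in place of 1.10. With control islets at 5 CPM or more, 836 genes were higher, 90 and 265 of those other than coding, and 83 list members higher. At 20 CPM or more they were 299 and 1347, 15 and 69, and 68 and 85. These last limits leave fewer genes, which by construction lowers the counts. The genes over both control islets and IgG, 1826, ran from 1653 to 1958 over the scalings. Depth limits the RIP most, since 3 counts there are 0.498 CPM.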

Other observations

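Hox genes, which set position along the body axis, had a higher summed level in both antibody libraries than in the islet libraries. This family and those that follow were chosen after their values had been seen, and sums run over all annotated members, measured or not. The 39 Hox cluster genes summed to 22.8 CPM in control islets, 20.5 in knockout-labelled islets, 113 after RIP and 110 with IgG, a ratio of RIP over control of 6.02 (5.38 to 6.73). Of 9 measured, 5 had under 1 CPM in control islets and had to differ, and 1 gene held 261 of the 680 RIP counts. The IgG library was as high as the RIP. Of the Hox genes, 14 had a count in the RIP against 27 in control islets. Over all genes, 15380 had a count in the RIP and 24350 in control islets, at 6025594 and 26350813 gene counts. Fewer Hox genes with a count thus cannot be told apart from lower depth.

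Protocadherins, adhesion proteins of neurons, summed to 193 CPM in control islets, 257 after RIP and 57.7 with IgG, a ratio of 1.62 (1.53 to 1.71). Of 32 measured, 17 were higher and 8 lower, beside 16.8% and 24.3% over all genes. Among the 32, 7 had under 1 CPM in control islets and had to differ. Sox transcription factors summed to 116, 153 and 50.7 CPM, a ratio of 1.597 (1.48 to 1.72), with 6 of 12 higher and 1 lower. Olfactory receptor genes, of which 1020 are annotated, summed to 20.6 CPM in control islets, 25.2 after RIP and 12.7 with IgG, a ratio of 1.49 (1.24 to 1.79). Of them, 10 had any count in the RIP against 60 in control islets, where the same difference in depth applies.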
